A study of Mus musculus with 6 samples.

Results

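Bcas2 and 9 genes of the PRP19 splicing complex and its associated factors (Prpf19, Cdc5l, Plrg1, Crnkl1, Xab2, Ctnnbl1, Bud31, Isy1 and Syf2) were followed in whole ovaries of newborn mice. The genes were taken by symbol, each symbol gave 1 row of the deposited table, and the 10 rows stand among 47122 gene models, of which 14589 passed a filter on low values. All 10 passed that filter, which asked for 1 FPKM or more (fragments per kilobase, divided by a size set for each library) in at least 3 of the 6 samples. Ovaries at 1 day post partum (dpp) came from 3 samples labelled BCAS2 cKO (conditional knockout, placed in oocytes by the series' design text) and from 3 wild-type (WT) samples. The study compares expression between these groups by sequencing of total RNA. The Cre driver, the deleted exons, the strain and any pooling of animals are not stated in the labels used here, and one label speaks of granulosa cells where titles and tissue name ovary. The labels also do not say whether each sample is a separate animal, so the p-values speak for the spread among these libraries, which can be technical.

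The PRP19 complex, known as NTC in yeast, joins the spliceosome as it is activated and stays with it through both catalytic steps. It holds the small nuclear RNAs of the active centre in place, and its core in mammals is built of PRP19, CDC5L, PLRG1 and BCAS2. BCAS2, also named SPF27, is a small coiled-coil protein of that core. Members of the complex also act in the response to DNA damage, where human PRP19 ubiquitylates the single-stranded DNA-binding protein RPA. At birth the mouse ovary holds its oocytes in late meiotic prophase, and somatic cells are gathering around them to form primordial follicles.

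The reads recovered from the FPKM values numbered 16800421 to 18382568 in the cKO libraries and 17252045 to 19565275 in the WT libraries. Groups were compared with limma on log2(FPKM + 1), with p-values adjusted over all tested genes, and a gene was called at an adjusted p under 0.05. Of the libraries, 3 stood apart from their groups in marker genes. These were cKO replicate 2 in erythroid genes, WT replicate 1 in endothelial, pericyte and stroma genes (high) and surface epithelium genes (low), and WT replicate 2 in immediate-early genes. WT replicate 1 was also raised in immediate-early genes, to a lesser degree. The values are given further on.

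Bcas2 RNA was lower in cKO ovaries, at 0.463 of its WT mean, by the single test of the label, and the ratio of means was 0.943 to 1.20 for the 9 partners. Across all genes neither Bcas2 nor any partner passed the test. Bcas2 is on chromosome 3 from 103078971 to 103086479 on the plus strand (GRCm39, as are the positions of the other genes), free of overlapping gene models. As the deleted gene it comes first, as a check of the labels. The level was 18.9, 21.9 and 18.3 FPKM in cKO replicates 1, 2 and 3, and 54.5, 37.5 and 35.7 FPKM in WT replicates 1, 2 and 3. All 3 cKO libraries lay below all 3 WT libraries, and WT replicate 1 stood apart at the top. These levels rest on 499, 560 and 516 reads in cKO libraries and on 1443, 990 and 1060 reads in WT libraries, as recovered from the FPKM values. The means were 19.7 ± 1.92 FPKM in cKO and 42.6 ± 10.4 FPKM in WT (SD, n = 3 each). On the log2 scale the difference was -1.05 (SE 0.17, 95% interval from -1.46 to -0.64).

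Taken alone, to test the label, Bcas2 had an unadjusted p of 0.000502 in limma, and an exact two-sided permutation test on its 6 values gave p = 0.1, the smallest that 3 against 3 allows. Adjusted over all 14589 genes by the Benjamini-Hochberg method, the limma p was 0.955. By unadjusted p Bcas2 ranked 6 among all tested genes. A ratio of means as low as that of Bcas2 was found in 121 tested genes, and in 16 of them the groups did not overlap. Bcas2 alone among those 16 had a WT mean of at least 10 FPKM, a limit chosen after the values were seen. Values are totals over the gene in whole ovaries, so reads from oocytes and from other cells are summed. In such bulk samples fewer cells of a type and less RNA per cell cannot be told apart.

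The starts of Bcas2, of Plrg1 and of Crnkl1 are shown to set the promoter of the deleted gene beside those of a highly expressed partner and of a partner with a head-to-head neighbour. Each sequence runs 5′ to 3′ on the gene's strand, from 250 bases before to 50 bases after the start, and is from RefSeq on GRCm38.p6, a different build from that of the table. Capitals mark matches on either strand to the 5 strings searched. These were GGGCGG, the GC box of SP and KLF factors. They also included CCGGAAG, a core for ETS factors, and the palindrome of the factor NRF1. The last pair were the TATA box, spelled TATAAA, and the box spelled CCAAT. Matches to each string were counted separately.
Bcas2 chr3:103171405-103171704, plus strand: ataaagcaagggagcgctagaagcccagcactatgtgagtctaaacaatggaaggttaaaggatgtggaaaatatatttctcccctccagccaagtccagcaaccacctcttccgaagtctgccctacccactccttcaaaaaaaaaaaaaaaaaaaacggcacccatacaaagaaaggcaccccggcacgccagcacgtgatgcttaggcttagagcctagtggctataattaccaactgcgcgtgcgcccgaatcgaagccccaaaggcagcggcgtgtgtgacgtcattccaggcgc
Plrg1 chr3:83055288-83055587, plus strand: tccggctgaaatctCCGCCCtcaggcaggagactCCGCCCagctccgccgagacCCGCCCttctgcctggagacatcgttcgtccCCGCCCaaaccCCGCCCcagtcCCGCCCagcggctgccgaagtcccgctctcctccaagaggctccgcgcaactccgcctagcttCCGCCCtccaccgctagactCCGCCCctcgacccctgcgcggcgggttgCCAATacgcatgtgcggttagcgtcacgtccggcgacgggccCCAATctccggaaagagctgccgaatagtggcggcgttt
Crnkl1 chr2:145934651-145934950, minus strand: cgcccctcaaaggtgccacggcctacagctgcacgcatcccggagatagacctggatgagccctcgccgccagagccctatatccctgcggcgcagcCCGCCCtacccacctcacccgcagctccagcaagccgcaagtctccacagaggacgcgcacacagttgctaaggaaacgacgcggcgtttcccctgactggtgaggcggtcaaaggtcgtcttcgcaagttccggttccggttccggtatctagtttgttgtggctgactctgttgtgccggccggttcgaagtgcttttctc

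The Bcas2 window held no exact match to these 5 strings and 15 CpG sites, with 50.7% GC. It does hold gcgcgtgcgc, a near match to the NRF1 string that the exact search did not count. The Plrg1 window held 8 GC boxes and 2 CCAAT boxes, with 35 CpG sites and 68.7% GC. The Crnkl1 window held 1 GC box, with 26 CpG sites and 62.0% GC. All 10 genes matched, with 12 windows in all, since Prpf19 and Bud31 have 2 each. A GC box was present in 7 of the 12 windows (6 genes), a CCAAT box in 6 (5 genes) and the ETS string in 4 (4 genes). The NRF1 and TATA strings were in 0. Of 12659 windows, which covered 9965 of the tested coding genes, 63.2% held a GC box, 37.8% a CCAAT box, 17.5% the ETS string, 2.11% the NRF1 string and 6.90% a TATA box. The median of the 12 windows was 24 CpG sites, against 20 over those 12659 windows. A match describes the letters of the window and is no measured binding site.

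None of the 3 core partners of Bcas2, nor Ctnnbl1, which binds to the core, passed the test, with ratios of means, cKO over WT, of 0.976 for Prpf19, 1.03 for Cdc5l, 0.993 for Plrg1 and 0.957 for Ctnnbl1. Prpf19, the ubiquitin ligase that gives the complex its name (chromosome 19, 10872595 to 10886923, plus strand), was at 25.3, 27.2 and 28.2 FPKM in cKO and at 26.8, 28.2 and 27.6 FPKM in WT. The groups overlapped, and its spread was the narrowest of the 10 genes in WT, with a coefficient of variation of 2.54%. Its log2 fold change was -0.04 (SE 0.09, 95% interval from -0.24 to 0.17), and limma gave an adjusted p of 0.978. Cdc5l, the scaffold with Myb-type DNA-binding repeats (chromosome 17, 45702809 to 45744633, minus strand), was at 30.7, 29.6 and 29.7 FPKM in cKO and at 25.4, 27.6 and 34.0 FPKM in WT. The cKO values all lay inside the WT range, and the log2 fold change was 0.06 (SE 0.12, 95% interval from -0.23 to 0.34, limma adjusted p = 0.974).

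Plrg1, the WD-repeat subunit of the core, lies on the same chromosome as Bcas2, 20.1 Mb away (chromosome 3, 82962845 to 82979598, plus strand). Its level was 51.1, 46.9 and 50.5 FPKM in cKO and 40.6, 51.0 and 58.1 FPKM in WT. The cKO values again lay inside the WT range, the log2 fold change being 0.0036 (SE 0.14, 95% interval from -0.33 to 0.33, limma adjusted p = 0.997). Ctnnbl1, an armadillo-repeat protein that in human cells binds CDC5L (chromosome 2, 157579321 to 157733823, plus strand), was the lowest of the 10 genes in WT. It stood at 13.99, 15.3 and 15.02 FPKM in cKO and at 15.1, 14.3 and 16.9 FPKM in WT. These groups overlapped too, the log2 fold change being -0.06 (SE 0.10, 95% interval from -0.29 to 0.18, limma adjusted p = 0.964).

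The associated factors Crnkl1 and Xab2, the mammalian counterparts of yeast Clf1 and Syf1, are helical-repeat proteins that bridge parts of the active spliceosome. Crnkl1 (chromosome 2, 145759402 to 145776620, minus strand) was at 22.6, 23.8 and 20.1 FPKM in cKO and at 16.4, 18.1 and 21.1 FPKM in WT. Of the 9 partners it had the largest difference on the log2 scale. Its means were 22.2 ± 1.86 FPKM in cKO and 18.6 ± 2.39 FPKM in WT (SD, n = 3 each), yet cKO replicate 3 lay below WT replicate 3 and the groups overlapped. Its log2 fold change was 0.25 (SE 0.12, 95% interval from -0.04 to 0.54), with an unadjusted limma p of 0.0795 and an adjusted p of 0.955. Leaving out each library in turn, it ranged from 0.17 without WT replicate 1 (unadjusted limma p of 0.210) to 0.34 without WT replicate 3 (unadjusted limma p of 0.0238), the only one of 16 alternatives with an unadjusted p under 0.05. Xab2, which also binds the repair factor XPA (chromosome 8, 3660089 to 3671311, minus strand), was at 30.3, 33.5 and 32.6 FPKM in cKO and at 32.9, 31.6 and 37.7 FPKM in WT. Here the log2 fold change was -0.08 (SE 0.10, 95% interval from -0.32 to 0.16, limma adjusted p = 0.955).

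Bud31, Isy1 and Syf2 are small factors of the same assembly, and Isy1 takes part in the fidelity of the first step in yeast. Bud31 (chromosome 5, 145077186 to 145084888, plus strand) had the highest mean of the 10 genes, at 62.7, 65.9 and 54.5 FPKM in cKO and 44.5, 57.0 and 62.6 FPKM in WT. Its log2 fold change was 0.17 (SE 0.15, 95% interval from -0.18 to 0.51, limma adjusted p = 0.955), with overlapping groups and WT replicate 1 lowest. Without WT replicate 1 it was 0.026. It overlaps Ptcd1 on the other strand by 701 bases, so reads of the 2 genes may be shared if counting took no account of strand. Ptcd1 was at 6.40 ± 0.507 FPKM in cKO and 6.66 ± 0.518 FPKM in WT. Isy1 (chromosome 6, 87795429 to 87815883, minus strand) was at 20.9, 20.03 and 20.8 FPKM in cKO and at 21.2, 18.4 and 19.7 FPKM in WT, and its log2 fold change was 0.06 (SE 0.09, limma adjusted p = 0.962). Syf2 (chromosome 4, 134658291 to 134664848, plus strand) was at 34.0, 36.3 and 33.4 FPKM in cKO and at 34.1, 33.1 and 31.3 FPKM in WT, and its log2 fold change was 0.07 (SE 0.09, limma adjusted p = 0.955). Both sets of groups overlapped.

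**Figure D1:**
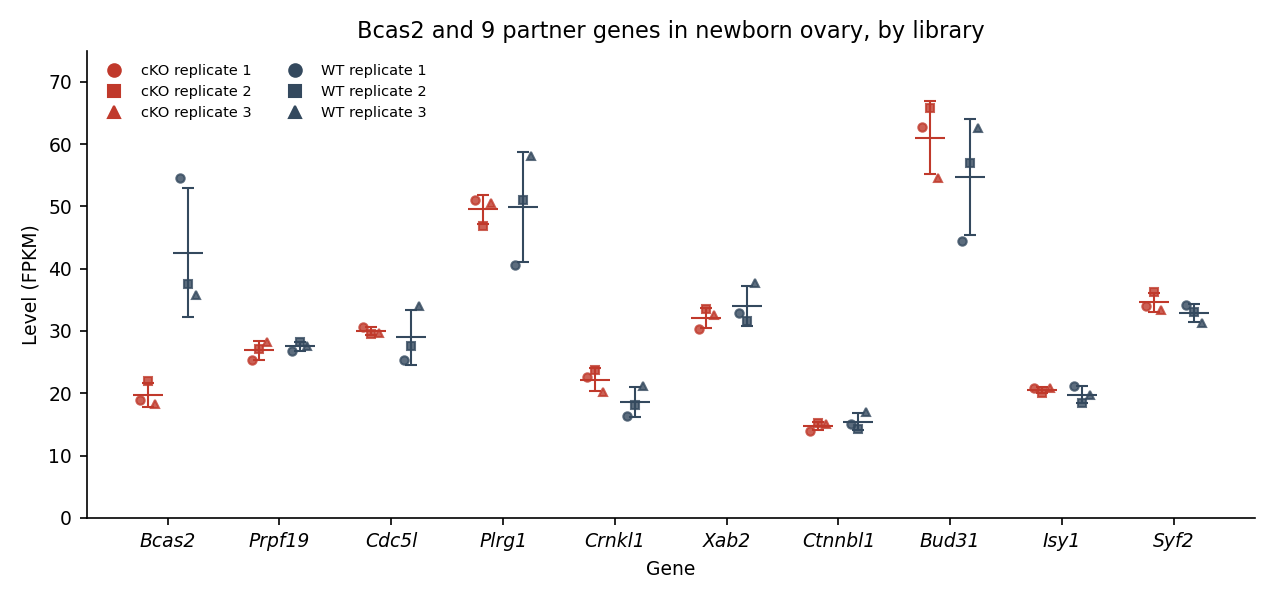
Level of each of the 10 genes in FPKM (vertical axis) in 3 cKO libraries (red) and 3 WT libraries (blue), with the mean and SD as bars and a marker shape for each replicate number. The groups of Bcas2 are apart, at 18.3 to 21.9 FPKM in cKO and 35.7 to 54.5 FPKM in WT, while those of the other 9 genes overlap.

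Read as a list, the partners gave no call. At an adjusted limma p under 0.05, 0 of the 10 genes passed, against a background of 0.0% of all tested genes, the smallest adjusted p of any gene being 0.484. At an unadjusted limma p under 0.05, 1 of the 10 genes, Bcas2, passed, where 443 of all tested genes (3.04%) did, 1.14% lower and 1.89% higher in cKO. Limma-voom on recovered reads called 0 genes too, and 354 of its unadjusted p-values were under 0.05. The groups did not overlap for 1 of the 10 genes, Bcas2, where 7.88% of all tested genes had such groups, 3.67% lower in cKO and 4.2% higher. Among the 9 partners 6 had a higher and 3 a lower estimate in cKO, but 2 and 7 after rescaling to TPM and 5 and 4 after quantile normalization. Their median log2 fold change was 0.06 beside -0.0058 for all tested genes, and -0.02 beside -0.08 after rescaling to TPM. None of the 9 partner intervals reached below 0.797-fold or above 1.45-fold, while the point estimate of Bcas2 was 0.482-fold. These outermost limits belong to Plrg1 and Crnkl1, and other intervals were narrower, such as 0.847-fold to 1.12-fold for Prpf19. Changes inside a gene's own interval could not be told from none at this precision.

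The relative levels of subunit transcripts were taken as ratios of FPKM within a library, which do not depend on library scaling. They are ratios of RNA and not of protein. Bcas2 to Prpf19 was 0.748, 0.806 and 0.651 in cKO libraries and 2.03, 1.33 and 1.30 in WT libraries. Bcas2 was thus below Prpf19 in 3 of 3 cKO libraries and above it in 3 of 3 WT libraries. Bcas2 to Cdc5l was 0.616, 0.740 and 0.618 in cKO and 2.15, 1.36 and 1.05 in WT, with the same separation. Bcas2 to Plrg1 was 0.370, 0.467 and 0.363 in cKO and 1.34, 0.737 and 0.615 in WT, again without overlap.

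Mean log2 differences of these 3 ratios, cKO minus WT, were -1.05 against Prpf19, -1.15 against Cdc5l and -1.09 against Plrg1. An exact two-sided permutation test gave p = 0.1 for each, the smallest it allows. All 3 share the same Bcas2 values. Without WT replicate 1 the differences were -0.84, -0.87 and -0.76 in the same order, and an exact permutation test of the remaining 5 libraries cannot go below p = 0.2. Ratios of the other 8 partners to Prpf19 overlapped between groups. Cdc5l to Prpf19 was 1.21, 1.09 and 1.05 in cKO and 0.947, 0.976 and 1.23 in WT (exact permutation p = 0.6). Plrg1 to Prpf19 was 2.02, 1.73 and 1.79 in cKO and 1.51, 1.81 and 2.11 in WT (exact permutation p = 1.0). Over the 11 ratios computed, p-values were left unadjusted. Among the 8, the ratio of Crnkl1 to Prpf19 had the largest log2 difference, 0.30 (exact permutation p = 0.2).

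**Figure D2:**
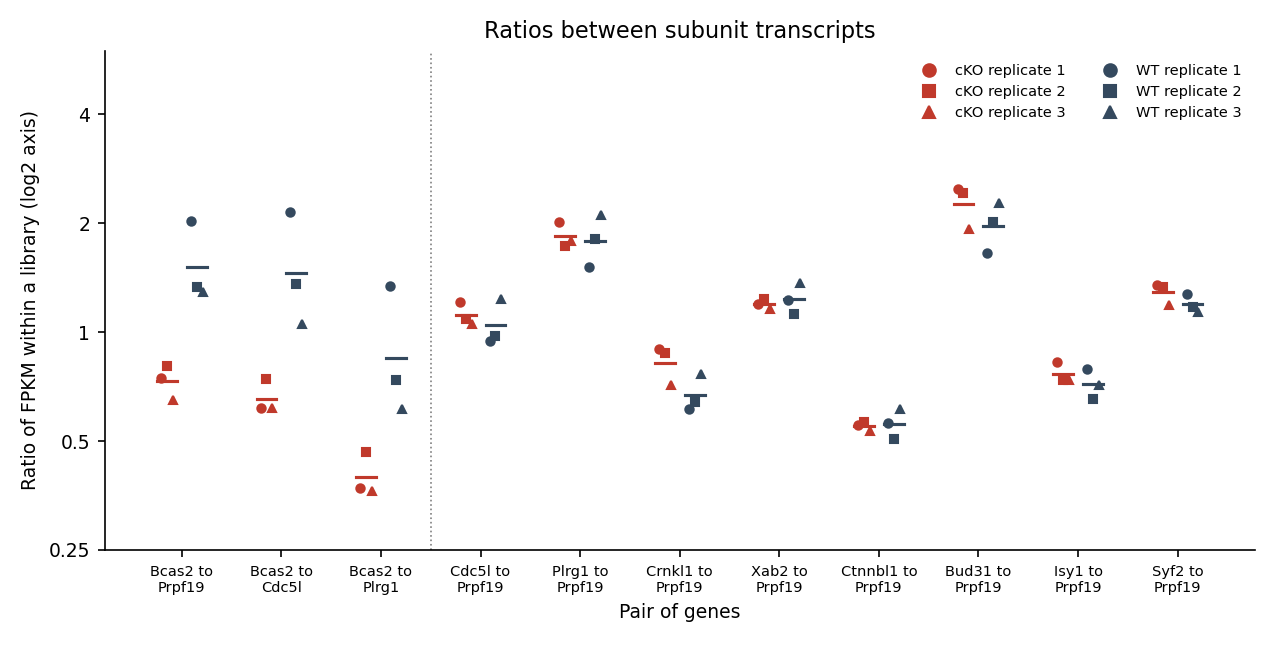
Ratio of FPKM between 2 genes within each library (log2 axis) for cKO libraries (red) and WT libraries (blue), with bars at the geometric mean. The 3 ratios with Bcas2 on top, left of the dotted line, do not overlap between groups, with Bcas2 to Prpf19 at 0.651 to 0.806 in cKO and 1.30 to 2.03 in WT, whereas the 8 ratios of other partners do.

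Summed over the 10 genes, Bcas2 made up 6.09%, 6.84% and 6.05% of the FPKM in cKO libraries, against 17.5%, 11.8% and 10.4% in WT libraries. By level it ranked 9, 8 and 9 of 10 in the cKO libraries and 1, 3 and 4 in the WT libraries. The summed level of the 9 partners was 291.6 ± 6.78 FPKM in cKO and 281.8 ± 26.2 FPKM in WT (SD, n = 3 each), with the cKO values inside the WT range of 257.0 to 309.1 FPKM. Within that sum the share of Crnkl1 was 7.76%, 7.96% and 7.07% in cKO and 6.39%, 6.49% and 6.84% in WT. It was the only one of the 9 partners whose share did not overlap, while its level did. By level, the groups did not overlap for 7.88% of all tested genes.

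Ordered by mean level, the genes ran in cKO ovaries Bud31, Plrg1, Syf2, Xab2, Cdc5l, Prpf19, Crnkl1, Isy1, Bcas2 and Ctnnbl1, and in WT ovaries Bud31, Plrg1, Bcas2, Xab2, Syf2, Cdc5l, Prpf19, Isy1, Crnkl1 and Ctnnbl1. In cKO the ranges of neighbours overlapped for Syf2 and Xab2, Xab2 and Cdc5l, Crnkl1 and Isy1, and Isy1 and Bcas2. In WT they overlapped for every pair of neighbours except Prpf19 and Isy1. In WT the 10 genes lay between percentiles 66.6 (Ctnnbl1) and 92.4 (Bud31) of all tested genes. Levels per length depend on the length used. The deposited table gives Prpf19 6333 bases and Isy1 1762 bases, while the longest coding transcript in GENCODE M21 has 6035 bases for Prpf19 and 5837 for Isy1. The same reads were also divided by these GENCODE lengths, an alternative chosen after seeing the data. That division put Isy1 at 6.21 FPKM in cKO and 5.97 FPKM in WT, rank 10 in both groups. Bcas2 then ranked 7 in cKO and 3 in WT. Reads were not recounted on the longer Isy1 transcript, so its value there shows the effect of the length alone and is no estimate of its level.

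**Figure D3:**
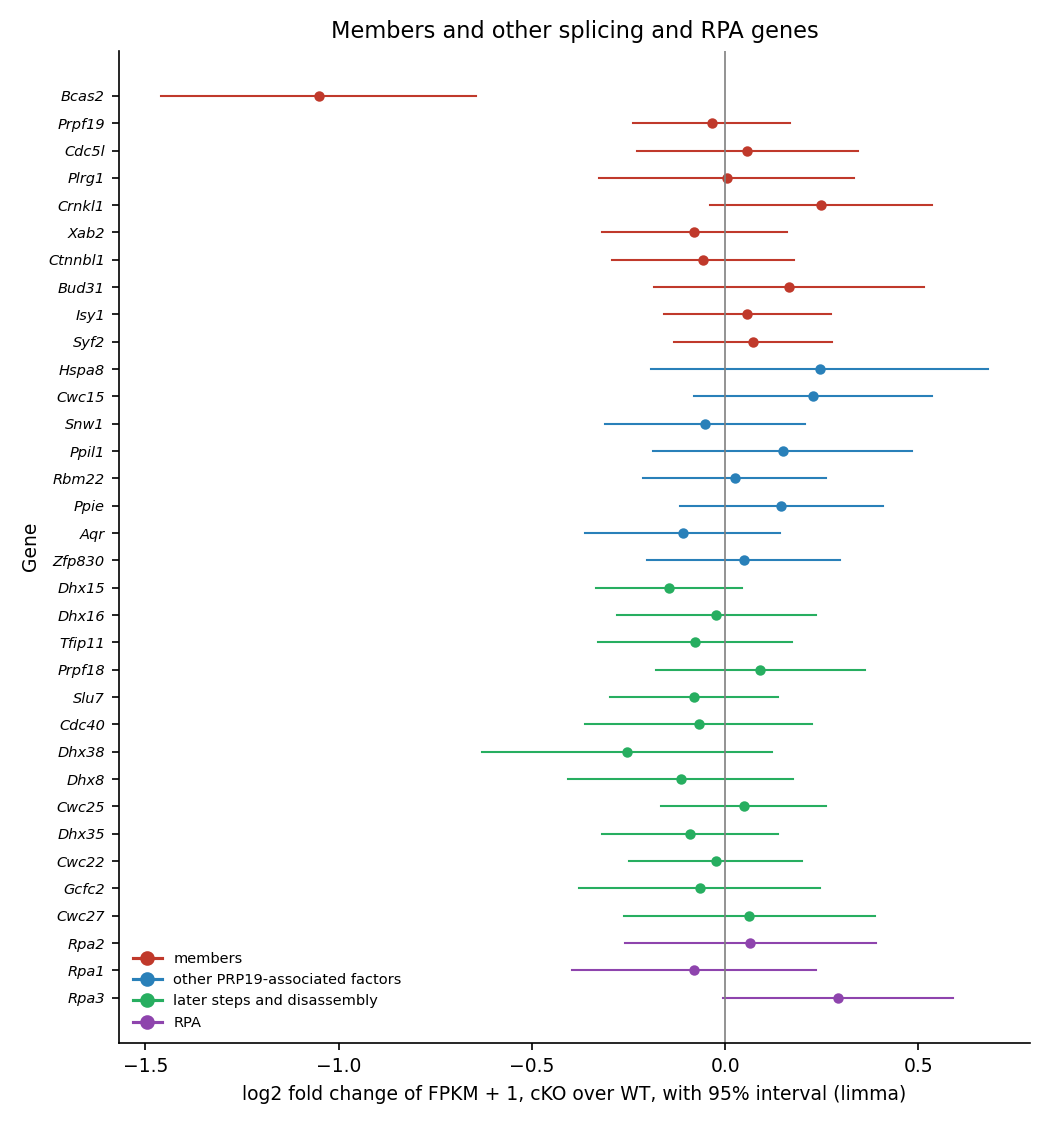
Log2 fold change of FPKM + 1, cKO over WT, with its 95% interval from limma for the 10 genes (red), other PRP19-associated factors (blue), factors of later steps and disassembly (green) and RPA genes (purple). Bcas2 stands apart at -1.05, and the interval of each of the other genes crosses 0.

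None of the other proteins listed as travelling with the complex passed the test. Of 8 further PRP19-associated factors (Cwc15, Hspa8, Snw1, Rbm22, Ppie, Ppil1, Aqr and Zfp830), 0 rose and 0 fell at an adjusted limma p under 0.05, and 0 had an unadjusted p under 0.05. Over all tested genes the shares were 0.0% and 3.04%, so these counts do not set the list apart. Their estimates had a median of 0.10 on the log2 scale, beside -0.0058 for all tested genes, with 6 estimates higher and 2 lower in cKO (4 and 4 after rescaling to TPM). Cwc15, a core-associated protein, was at 59.2 ± 9.02 FPKM in cKO and 50.2 ± 3.95 FPKM in WT. Hspa8, a constitutive chaperone found with the human complex, was at 633.2 ± 28.8 FPKM in cKO and 543.4 ± 117.8 FPKM in WT. The peptidyl-prolyl isomerase Ppie was at 24.8 ± 1.19 FPKM in cKO and 22.4 ± 2.64 FPKM in WT, and its relative Ppil1 at 37.2 ± 5.76 FPKM in cKO and 33.3 ± 3.85 FPKM in WT (SD, n = 3 each). All 4 had overlapping groups and a limma adjusted p of 0.955.

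Factors that act on the spliceosome after the complex has joined did not pass the test either. Of 13 such genes (Dhx16, Dhx38, Dhx8, Dhx35, Dhx15, Cwc22, Cwc25, Cwc27, Cdc40, Slu7, Prpf18, Tfip11 and Gcfc2), 0 rose, 0 fell and 13 did not pass at an adjusted limma p under 0.05, and 0 had an unadjusted p under 0.05. Here too the shares over all tested genes were 0.0% and 3.04%. Lower estimates in cKO made up 10 of the 13, with a median of -0.07 on the log2 scale (11 and -0.15 after rescaling to TPM, 9 and -0.04 after quantile normalization). Of all 14589 tested genes, 7491 had a lower estimate, with a median of -0.0058. Rescaling to TPM moved that median to -0.08, so part of the -0.15 is a shift shared by all genes. The groups did not overlap for 2 of the 13, Dhx15 and Dhx35, where 7.88% of all tested genes had such groups. Dhx15, the helicase that takes spent spliceosomes apart, was at 50.3, 47.2 and 48.3 FPKM in cKO and at 53.6, 54.3 and 53.6 FPKM in WT. Its groups did not overlap and its WT values were close together, but the difference was -0.15 on the log2 scale (SE 0.08, limma adjusted p = 0.955). Dhx35, another helicase of the list, was at 7.87 ± 0.199 FPKM in cKO and 8.46 ± 0.528 FPKM in WT, and Dhx38, the counterpart of yeast Prp16, at 11.7 ± 1.78 FPKM in cKO and 14.2 ± 2.60 FPKM in WT. Dhx8, which releases the spliced product, was at 10.9 ± 1.63 FPKM in cKO and 11.8 ± 0.621 FPKM in WT (SD, n = 3 each).

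The subunits of RPA, a partner of PRP19 at damaged DNA, were not called, with 0 of 3 at an adjusted or at an unadjusted limma p under 0.05. All tested genes gave 0.0% and 3.04% at these limits. Rpa3 had the largest difference, at 35.3, 38.5 and 33.3 FPKM in cKO and 26.3, 26.99 and 34.2 FPKM in WT. Only WT replicate 3 reached the cKO range, and the log2 fold change was 0.29 (SE 0.13, 95% interval from -0.01 to 0.59, limma adjusted p = 0.955). Leaving out each library in turn, it ranged from 0.22 without WT replicate 1 (unadjusted limma p of 0.139) to 0.41 without WT replicate 3 (unadjusted limma p of 0.00699, adjusted p of 0.599). Quantile normalization gave 0.30, with an unadjusted limma p of 0.0338. Rpa1 was at 35.1 ± 3.69 FPKM in cKO and 37.3 ± 5.30 FPKM in WT, and Rpa2 at 47.7 ± 3.30 FPKM in cKO and 46.0 ± 7.75 FPKM in WT (SD, n = 3 each).

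By position, 4 of the 10 genes have another gene starting head to head within 1 kb, where 16.5% of the 12394 tested coding genes do. Cdc5l is 124 bases from the noncoding gene B230354K17Rik, Crnkl1 57 bases from Cfap61, Xab2 240 bases from Pet100 and Bud31 351 bases from Pdap1. Levels within such pairs were far apart for Crnkl1, since Cfap61 was at 0.304 ± 0.0732 FPKM in cKO and 0.358 ± 0.0841 FPKM in WT. They were nearer for Bud31, with Pdap1 at 31.1 ± 2.51 FPKM in cKO and 29.9 ± 0.635 FPKM in WT. B230354K17Rik was at 10.1 ± 0.842 FPKM in cKO and 9.77 ± 0.520 FPKM in WT, and Pet100 at 6.62 ± 2.86 FPKM in cKO and 4.83 ± 0.359 FPKM in WT (SD, n = 3 each).

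The libraries were not alike within groups. Oocyte markers were present in every library, with all 8 of 8 listed genes tested and summed levels of 980.9 to 1277 FPKM in cKO and 874.5 to 1307 FPKM in WT. All 6 pregranulosa markers were tested as well, summing to 304.3 to 366.1 FPKM in cKO and 273.2 to 405.9 FPKM in WT. Endothelial markers (6 of 6 tested, none at 0) summed to 27.9 to 37.6 FPKM in cKO and to 115.5, 39.5 and 25.6 FPKM in WT replicates 1, 2 and 3. The highest sum was thus in WT replicate 1, the library with the highest Bcas2. Stroma markers (6 of 6 tested) summed to 210.8 to 274.6 FPKM in cKO and to 756.9, 359.3 and 231.6 FPKM in the WT replicates. Pericyte and smooth muscle markers (5 of 6 tested, none at 0) summed to 17.1 to 20.5 FPKM in cKO and to 70.6, 17.97 and 13.9 FPKM in the WT replicates.

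Without WT replicate 1, Bcas2 averaged 19.7 FPKM in cKO and 36.6 FPKM in WT, a ratio of 0.538, and the groups remained apart (log2 fold change -0.86, limma unadjusted p = 0.000172, adjusted p = 0.835). The sum of 5 erythroid markers was 692.6, 13156 and 1195 FPKM in cKO replicates 1, 2 and 3 and 400.2 to 1123 FPKM in WT. That of 5 immediate-early genes was 32.0 to 49.9 FPKM in cKO and 145.2, 432.5 and 37.4 FPKM in the WT replicates. So cKO replicate 2 stood apart in erythroid markers and WT replicate 2, and to a lesser degree WT replicate 1, in immediate-early genes. Surface epithelium markers (6 of 6 tested) summed to 386.8 to 474.0 FPKM in cKO and to 171.0, 484.4 and 398.0 FPKM in WT replicates 1, 2 and 3, so that WT replicate 1 was the lowest library. Macrophage markers (5 of 6 tested) summed to 16.8 to 21.9 FPKM in cKO and 16.6 to 23.9 FPKM in WT. Among the WT libraries the oocyte sum was 874.5, 901.4 and 1307 FPKM in replicates 1, 2 and 3. Plrg1, Bud31, Cdc5l and Crnkl1 were likewise lowest in WT replicate 1 and highest in WT replicate 3. The other partners did not follow that order. Isy1 and Syf2 were highest in WT replicate 1, Prpf19 was highest in WT replicate 2, and Xab2 and Ctnnbl1 were lowest in WT replicate 2. The part of these tissue differences in the values of the 10 genes was not tested.

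**Figure D4:**
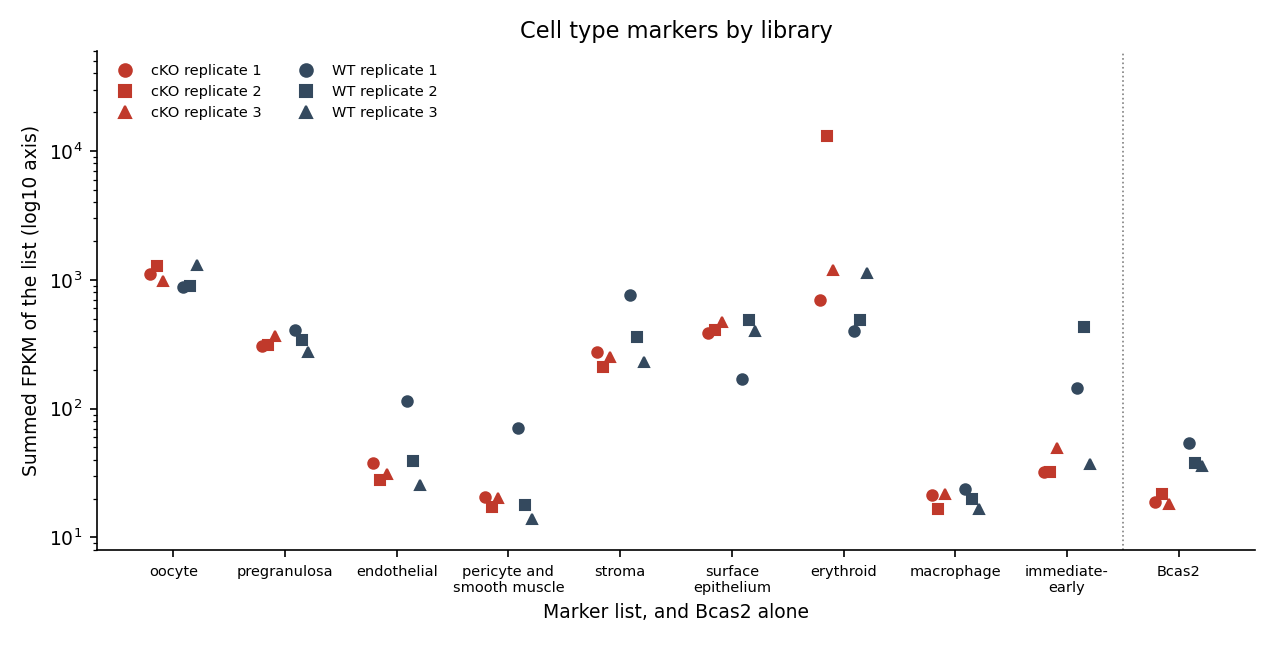
Summed FPKM (log10 axis) of 9 lists of marker genes in each cKO library (red) and WT library (blue), with Bcas2 alone on the right. WT replicate 1 is high for endothelial (115.5 FPKM), pericyte and stroma markers and for Bcas2 (54.5 FPKM), and cKO replicate 2 for erythroid markers (13156 FPKM).

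The genes whose pattern over the 6 libraries was most like that of Bcas2 were Prcp, Slc29a1, Adam12, Nfix and Pcsk6. Likeness was the root mean square difference of centred log2(FPKM + 1) over the 6 libraries, among 8699 other coding genes with a mean of at least 5 FPKM and an established symbol. It was 0.28 for Prcp, 0.30 for Slc29a1, 0.30 for Adam12, 0.31 for Nfix and 0.32 for Pcsk6, where the root mean square of Bcas2 about its own mean was 0.56. All 5 were highest in WT replicate 1. Prcp, a carboxypeptidase, was at 6.06, 6.71 and 5.63 FPKM in cKO and at 14.9, 6.99 and 7.96 FPKM in WT. No PRP19 partner was among these 5 genes, which, with only 5 taken from 8699, says little about the partners.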

How the data were processed

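RNA was measured in 3 cKO and 3 WT samples of ovary at 1 dpp, grouped by the sample titles. The authors deposited FPKM values for 47122 gene models. A tool, HISAT2 2.0.5, and 2 builds, GRCm39 and mm10, are listed per the submitters' processing notes, with no role given. Which counter, annotation release, strand setting or filter was applied is not given here. FPKM times gene length over 1 step per library gave whole reads within 0.05 for 100% of the values checked, and these summed to 16800421 to 18382568 in cKO and 17252045 to 19565275 in WT libraries. Library sizes implied by those steps differed from the read sums. WT replicate 1 had an implied size of 17427708 beside 18121659 reads, and cKO replicate 1 had 17381234 beside 16887623. Replicate pairs differed by more than sampling noise (chi-square of 13.3 to 66.6 per degree of freedom).

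Genes reaching 1 FPKM in 3 or more of the 6 samples were tested as log2(FPKM + 1) with limma 3.58.1 in R 4.3.3 (two-sided, trend in the prior spread), with Benjamini-Hochberg adjustment over all 14589 genes and a threshold of 0.05. The script was tested on simulated data. Ratios were tested with SciPy 1.17.1. Members and lists were chosen with earlier results of these data known. Of each list, the 4 genes with the smallest p are named with values. Alternatives covered the pseudocount, filter, scaling, a replicate block, the prior, limma-voom with TMM factors and leaving out each library.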

Additional observations from a re-analysis of the deposited data

How the results depend on the processing

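Over 16 alternatives the Bcas2 log2 fold change stayed between -1.16 and -0.86 and its unadjusted limma p between 0.000172 and 0.00305. Median-of-ratios scaling, among the 16, left the Bcas2 value at -1.05 and the median of all genes at -0.0058. It changed almost nothing and is no separate check. Over all tested genes 0 were called in each of these settings but one: without cKO replicate 2 it was 1 (0 to 1 over the fits that leave out a library). That gene was Pcna-ps2, a Pcna pseudogene named after its values were seen, which may share reads with Pcna. Beside the 443 genes at an unadjusted p under 0.05 stood 702, 293 and 253 when cKO replicate 3, 1 or 2 was left out, 1056 when WT replicate 3 was, 254 with a filter at 5 FPKM and 1147 (of 33311) with no filter. Of the 10 members 0 were called under each of the 16. With a replicate block the Bcas2 value was -1.05 and 432 genes had an unadjusted p under 0.05. Whether the numbers pair the samples is not known from the labels. Deviations of same-numbered libraries correlated at 0.22, 0.01 and -0.03, and not every library correlated best with its own number. With the tissue differences among the libraries, such correlations cannot settle whether samples were paired. The block changed no call. In exact sign-flip tests over 3 pairs the ratios of Bcas2 gave p = 0.25, the smallest possible.

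Partners with estimates near 0 changed sign, none of them called. Rescaling to TPM, which moved the median of all genes to -0.08, gave -0.0215 for Cdc5l, -0.0773 for Plrg1, -0.0213 for Isy1, -0.00766 for Syf2 and -0.0154 for Rpa2, and quantile normalization gave -0.0131 for Plrg1. When 1 library was left out, values ranged from -0.0691 to 0.00697 for Prpf19, -0.0288 to 0.174 for Cdc5l, -0.135 to 0.119 for Plrg1, -0.107 to 0.00708 for Ctnnbl1, -0.185 to 0.0164 for Rpa1 and -0.0567 to 0.183 for Rpa2. The cause was not tested. With 3 samples a group, precision limits what can be seen: partner intervals reached 0.20 to 0.35 to either side on the log2 scale.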
